A study of Homo sapiens with 6 samples.

Results

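The genes described here belong to cholesterol and fatty acid synthesis in A375, an established human melanoma cell line. They were chosen by name and number 33 of the 58735 genes in the deposited table of FPKM, in which fragment counts are divided by the length of the gene and by the size of the library. The list covers regulation by SREBP, the mevalonate and squalene steps, the conversion of lanosterol to cholesterol, sterol transport and export, and fatty acid synthesis. It does not hold every enzyme or receptor of these pathways. The study compared 3 libraries of cells given CuB, spelled out in the series title as cucurbitacin B, with 3 libraries of cells given DMSO, the solvent, each harvested after 6 h. The labels state a CuB dose of 0.2 µM in the protocol and 100 nM in the names of the libraries. They do not say whether replicates were separate cultures, so p-values measure the spread between these libraries, which may be technical.

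SREBP transcription factors are made as membrane proteins of the endoplasmic reticulum. SCAP escorts them to the Golgi when membrane sterol is low, MBTPS1 and MBTPS2 cut them there, and INSIG proteins hold SCAP back when sterol is plentiful. The released SREBF2 product mainly drives genes of cholesterol synthesis and uptake, and that of SREBF1 mainly those of fatty acid synthesis. A separate sterol sensor, the nuclear receptor LXR, drives the export genes ABCA1 and ABCG1 as well as MYLIP, which acts on lipoprotein receptors.

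Depth was recovered from the FPKM values, which were whole multiples of 1 fragment in each library within 0.01 of a fragment. The CuB libraries held from 15502971 to 16137093 fragments and the DMSO libraries from 14845976 to 15797757. The melanoma and neural crest factor SOX10 was at 184.0 to 245.0 FPKM with CuB and 162.0 to 256.0 FPKM with DMSO. MITF, a melanocyte factor, was at 3.75 to 5.17 FPKM with CuB and 3.42 to 4.25 FPKM with DMSO. The pigment genes were low. MLANA was at no more than 1.29 FPKM, PMEL at no more than 0.241 FPKM and DCT at no more than 0.0624 FPKM. TYR was at 0 in 4 of the 6 libraries. Of the 11 markers of leukocytes, endothelium, epithelium and fibroblasts, 9 were at or near 0 (at most 0.417 FPKM). The other two were KRT18, at 74.2 to 76.1 FPKM with CuB and 41.6 to 46.3 FPKM with DMSO, and PDGFRB, at 1.11 to 1.51 and 2.52 to 3.29 FPKM in that order, and their part in the results below was not tested. In bulk RNA, fewer cells of a type and less RNA per cell cannot be told apart. Libraries of a group differed by GC content. Among all genes with a longest transcript of at least 61.2% GC, DMSO replicate 2 lay 0.349 above its group mean on the log2 scale (median), and CuB replicate 1 lay at -0.208. All 33 gene lengths in the table equalled the exon lengths in GENCODE 29. Of the 33 genes, 18 share no exon base with another annotated gene and 5 share more than 10%. The kit does not mark strand, and how fragments at shared positions were counted is not given in the sources used here.

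Falls outnumbered rises among the lipid genes with CuB. Of the 33 genes, 32 reached a mean of 1 FPKM over the 6 libraries and were tested, and ABCG1 did not. Of the 32, 15 fell, 1 rose and 16 did not pass, at a limma adjusted p under 0.05 over all 13273 tested genes. The share that fell was 46.9%, beside 15.6% of all tested genes. The share of all tested genes that rose was 22.9%, and 38.6% changed in either direction. The median log2 fold change of the 32 genes was -0.33, beside 0.0548 for all tested genes, and 28 of the 32 values were negative. All 3 CuB values lay below all 3 DMSO values in 19 of the 32 genes, beside 21.7% of all tested genes. They lay above them in 1 gene, NPC1, beside 29.8% of all tested genes. Fold changes are CuB minus DMSO of log2(FPKM + 1), and the added 1 makes those of scarce genes too small. The library size that the FPKM imply was 0.914 to 0.927 of the fragment total with CuB and 1.03 to 1.04 with DMSO, so the split of all calls depended on the scaling. There were 3046 rises and 2072 falls as deposited, 2323 and 2653 once FPKM summed alike in every library (TPM), 2242 and 2509 after quantile normalization, and 2022 and 3128 with equal fragment totals. At a minimum mean of 5 FPKM there were 2265 and 985. Among the 33 genes the falls numbered 19, 19 and 21 under the 3 rescalings and the rises 0.

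**Figure D1:**
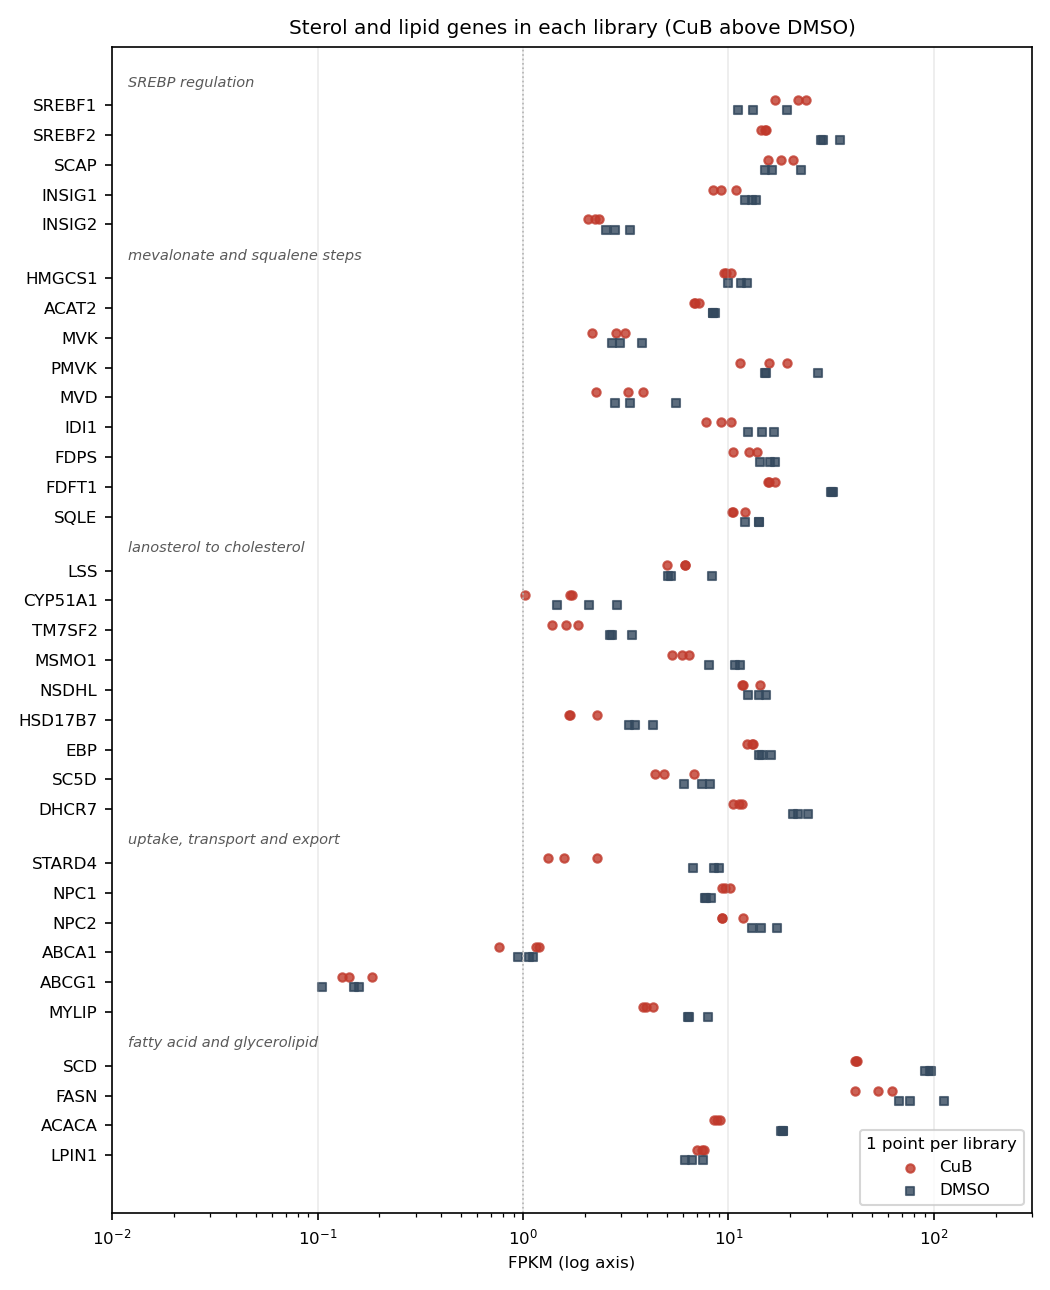
FPKM of the 33 genes in each library on a log axis, ordered by role, with CuB (red circles) above DMSO (dark squares) and a dotted line at 1 FPKM. STARD4, SCD, ACACA, FDFT1, DHCR7 and SREBF2 show the widest gaps, with every CuB point to the left of every DMSO point.

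**Figure D2:**
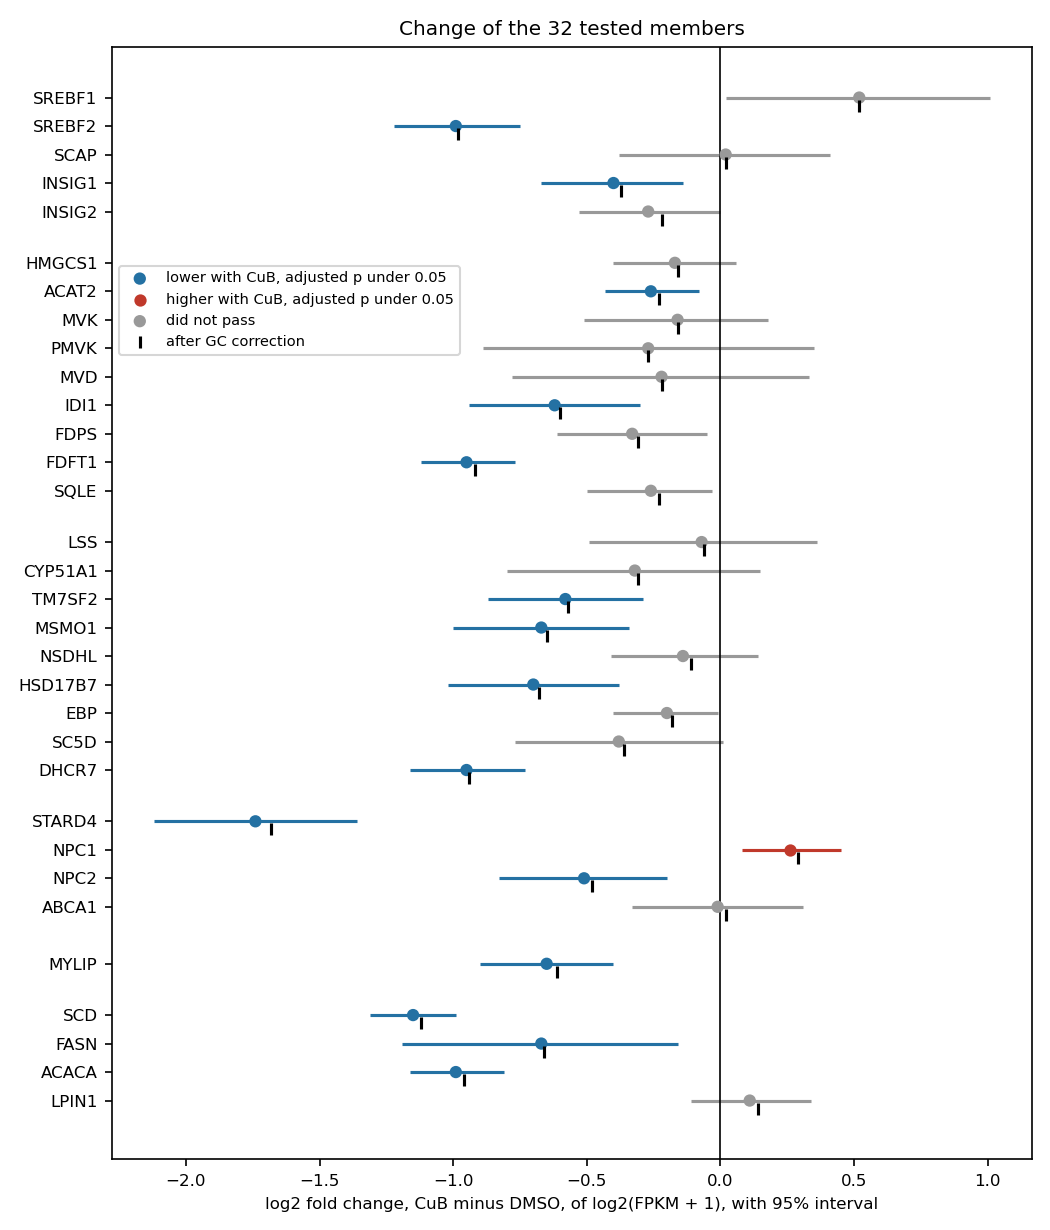
Log2 fold change of each of the 32 tested genes, CuB minus DMSO, with its 95% interval from limma, coloured by whether it passed and with a black tick for the value after a GC correction. STARD4 lies lowest at -1.74, NPC1 is the 1 gene that passed as higher, at 0.26, and SREBF1 lies at 0.52 with an interval from 0.02 to 1.01.

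Promoters are shown for NPC1, the gene that rose, for STARD4, which had the lowest fold change, and for 1 gene each of SREBP regulation, the mevalonate steps and the lanosterol steps, because SREBP, NF-Y and Sp1 are known to act together at sterol-regulated promoters. SREBF2 and DHCR7 had the largest changes that passed in their roles. In the mevalonate steps FDFT1 changed more than IDI1, and its promoter is not shown, nor are those of the fatty acid genes, among them SCD. The windows run from 250 bases before to 50 bases after the gene's start in RefSeq on GRCh38.p14, 5′ to 3′ on the gene's own strand. Capitals mark the motifs found on either strand, TCACNCCAC for SREBP, CCAAT for NF-Y and GGGCGG for Sp1. No match to one motif overlapped a match to another in these windows. SREBF2 (chr22:41832855-41833154, plus strand) carries 1 SREBP motif, at position -133 from the start, with 1 NF-Y motif and 3 Sp1 motifs. IDI1 (chr10:1056655-1056954, minus strand) carries 4 Sp1 motifs, and its RefSeq start lies upstream of the gene as placed in the deposited table, which ends at 1049170. DHCR7 (chr11:71448344-71448643, minus strand) carries 2 NF-Y and 4 Sp1 motifs, and its RefSeq start lies inside the gene as placed in the deposited table, which ends at 71452868. STARD4 (chr5:111512486-111512785, minus strand) carries 2 NF-Y motifs and 1 Sp1 motif, and NPC1 (chr18:23586457-23586756, minus strand), the gene that rose, carries 2 Sp1 motifs.
SREBF2: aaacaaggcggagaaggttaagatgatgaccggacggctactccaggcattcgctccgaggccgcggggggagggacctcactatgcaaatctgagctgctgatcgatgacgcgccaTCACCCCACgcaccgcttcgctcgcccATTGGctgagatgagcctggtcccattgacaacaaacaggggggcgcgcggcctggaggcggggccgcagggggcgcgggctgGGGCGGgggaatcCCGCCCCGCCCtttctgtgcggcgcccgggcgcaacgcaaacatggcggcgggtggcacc
IDI1: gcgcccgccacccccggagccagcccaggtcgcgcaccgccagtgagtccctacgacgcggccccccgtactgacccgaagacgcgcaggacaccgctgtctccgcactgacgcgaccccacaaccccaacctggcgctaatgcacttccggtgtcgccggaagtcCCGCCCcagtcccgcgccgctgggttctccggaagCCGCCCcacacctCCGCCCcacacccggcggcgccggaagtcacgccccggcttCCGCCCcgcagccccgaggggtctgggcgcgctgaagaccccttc
DHCR7: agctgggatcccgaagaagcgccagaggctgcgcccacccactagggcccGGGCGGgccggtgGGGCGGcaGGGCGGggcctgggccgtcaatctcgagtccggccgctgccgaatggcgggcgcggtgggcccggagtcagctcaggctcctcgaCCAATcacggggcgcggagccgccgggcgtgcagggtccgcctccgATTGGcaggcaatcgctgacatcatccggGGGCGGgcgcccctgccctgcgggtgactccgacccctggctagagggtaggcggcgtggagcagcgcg
STARD4: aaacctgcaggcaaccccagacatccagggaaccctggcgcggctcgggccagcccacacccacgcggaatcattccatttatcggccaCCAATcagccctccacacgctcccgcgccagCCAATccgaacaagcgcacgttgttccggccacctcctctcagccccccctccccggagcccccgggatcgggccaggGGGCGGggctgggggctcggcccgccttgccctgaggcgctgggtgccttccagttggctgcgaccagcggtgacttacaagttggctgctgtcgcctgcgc
NPC1: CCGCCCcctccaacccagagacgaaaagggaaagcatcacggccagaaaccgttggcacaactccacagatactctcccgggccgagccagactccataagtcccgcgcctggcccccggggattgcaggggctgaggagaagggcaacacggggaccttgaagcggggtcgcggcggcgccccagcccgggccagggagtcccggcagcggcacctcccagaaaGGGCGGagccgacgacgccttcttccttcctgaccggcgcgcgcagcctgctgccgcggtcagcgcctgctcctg

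Of the 33 genes, 28 had a promoter in the RefSeq table. CCAAT on either strand was present in 18 of the 28 (64.3%), against 34.6% of all 35116 promoters and 37.6% of the 9012 that matched a tested gene by symbol. Among the 28 it was present in 10 of the 12 whose gene fell and in 8 of the 15 whose gene did not pass. The difference between these counts was not tested. The Sp1 motif was present in 27 of the 28, against 71.3% of tested genes' promoters. TCACNCCAC was present in 1 of the 28, SREBF2, against 1.17% of tested genes' promoters. The ATF4 composite motif, searched as TGATGNAA, and the DR4 motif of LXR were in 0 of the 28, against 1.53% and 0.0% of tested genes' promoters. A match is a string of letters in a short window and not a measured site.

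Of the 5 regulators 2 fell (40.0%, beside 15.6% of all tested genes), SREBF2 and INSIG1, and 3 did not pass. SREBF2, the SREBP gene of cholesterol synthesis (ENSG00000198911, chromosome 22 from 41833079 to 41907308 on GRCh38, as for all genes here), was at 14.4, 15.0 and 15.3 FPKM with CuB, against 28.9, 34.7 and 28.1 FPKM with DMSO. The groups did not overlap, and the log2 fold change was -0.99 (SE 0.0994, limma adjusted p = 0.000469). SREBF1, the SREBP gene of fatty acid synthesis (chromosome 17 from 17810399 to 17837002), was at 16.8, 21.7 and 23.8 FPKM with CuB, against 13.1, 19.2 and 11.1 FPKM with DMSO. DMSO replicate 2 lay above CuB replicate 1, so the groups overlapped. The log2 fold change of SREBF1 was 0.52 (SE 0.209) and did not pass (adjusted p = 0.0919). It passed as higher without DMSO replicate 2, at 0.73 (adjusted p = 0.0122), and after the GC correction, at 0.52 (adjusted p = 0.000844). SREBF1 did not pass on the TPM scale, with quantile-normalized values or with equal fragment totals (log2 fold change from 0.36 to 0.42, adjusted p from 0.16 to 0.221). Nor did it pass without any library other than DMSO replicate 2 (0.0645 to 0.235).

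SCAP, the SREBP escort, was at 15.5, 18.0 and 20.5 FPKM with CuB and 16.2, 22.5 and 15.0 FPKM with DMSO, with a 95% interval of the log2 fold change from -0.38 to 0.41 (adjusted p = 0.941). INSIG1, the retention protein whose gene is itself an SREBP target, averaged 9.51 ± 1.3 FPKM with CuB and 12.9 ± 0.826 FPKM with DMSO (SD, n = 3 per group here and below). All CuB values of INSIG1 were below all DMSO values, and it fell by 0.40 on the log2 scale (adjusted p = 0.0262). INSIG1 did not pass without CuB replicate 2 or 3 or DMSO replicate 1 or 3, with adjusted p between 0.071 and 0.103, or when low genes were kept (0.0567). INSIG2, its paralogue, was lower in level, at 2.21 ± 0.138 FPKM with CuB and 2.87 ± 0.401 FPKM with DMSO. It did not pass (adjusted p = 0.0985), although its groups did not overlap.

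The balance between partner genes was then compared within each library, where no scaling between libraries enters. Differences between libraries by GC content can still enter where paired genes differ in it. GC content was 47.1% in SCD and 65.3% in FASN, and 62.8% in SREBF1 and 57.1% in SREBF2. It was 46.0% in INSIG1 and 35.4% in INSIG2, and 50.3% in NPC1 and 44.3% in NPC2. The ratio of SREBF1 to SREBF2 FPKM was 1.17, 1.44 and 1.55 with CuB, against 0.452, 0.552 and 0.394 with DMSO. SREBF1 was thus the more abundant of the pair per length in all 3 CuB libraries and the less abundant in all 3 DMSO libraries. RAI1, on the opposite strand, shares 6.92% of the SREBF1 exon bases and averaged 16.2 FPKM. The part of RAI1 fragments in the SREBF1 values was not tested. The ratio of INSIG1 to INSIG2 averaged 4.3 ± 0.477 with CuB and 4.52 ± 0.517 with DMSO, with overlapping groups. NPC1 to NPC2 averaged 0.963 ± 0.0875 with CuB and 0.536 ± 0.0607 with DMSO, without overlap, and SCD to FASN 0.817 ± 0.18 and 1.16 ± 0.316, with overlap. The exact two-sided permutation p was 0.1 for SREBF1 to SREBF2 and for NPC1 to NPC2, the smallest that 3 against 3 can give, and 0.5 and 0.2 for the other pairs. Adjusted over the 4 pairs these became 0.2, 0.2, 0.5 and 0.267. The pairs were chosen after their values were seen.

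**Figure D3:**
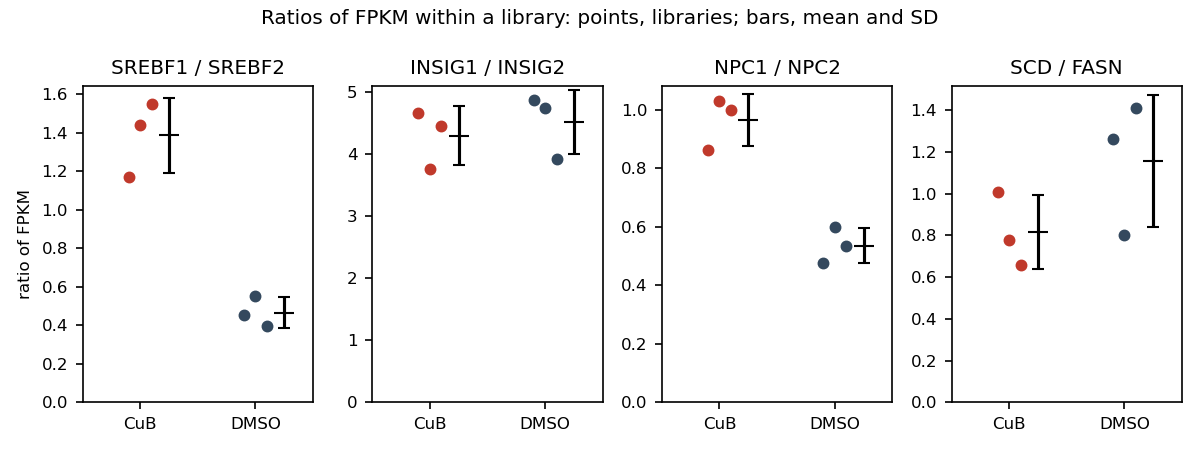
Ratio of FPKM of 4 gene pairs within each library, CuB at the left and DMSO at the right of each panel, with points for libraries and bars for the mean and SD of 3. SREBF1 to SREBF2 lies at 1.17 or more in each CuB library and at 0.552 or less in each DMSO library.

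In the mevalonate and squalene steps (median log2 fold change -0.26) 3 of 9 genes fell (33.3%, beside 15.6% of all tested genes). All 9 log2 fold changes were negative, although MVD ranged from -0.39 to 0.01 with 1 library left out. FDFT1, squalene synthase, the first enzyme committed to sterols (ENSG00000079459, chromosome 8 from 11795573 to 11839309), was at 16.9, 15.8 and 15.6 FPKM with CuB, against 31.4, 32.4 and 31.8 FPKM with DMSO. Its mean was 1.98-fold lower with CuB, with no overlap (log2 fold change -0.95, SE 0.0727, adjusted p = 0.000145). IDI1, the isopentenyl diphosphate isomerase, was at 10.3, 9.17 and 7.77 FPKM with CuB, against 14.5, 12.5 and 16.6 FPKM with DMSO. It fell by 0.62 on the log2 scale (adjusted p = 0.0111), and 14.8% of its exon bases are shared with the opposite-strand gene IDI2-AS1, at a mean of 0.126 FPKM. ACAT2, which makes acetoacetyl-CoA, was at 6.86, 6.82 and 7.16 FPKM with CuB, against 8.44, 8.4 and 8.61 FPKM with DMSO. It fell by 0.26 (adjusted p = 0.031), by less than IDI1, and without any library other than DMSO replicate 2 it did not pass (adjusted p from 0.0718 to 0.128). Exons of other genes, SOD2 and TCP1 among them, cover 52.3% of the ACAT2 exon bases. SOD2 is listed at 0 in all 6 libraries. How fragments at shared positions were counted is not given, so the level of ACAT2 is uncertain. TCP1, on the opposite strand, shares 9.23% of the ACAT2 exon bases and averaged 79.0 FPKM. The part of TCP1 fragments in the ACAT2 values was not tested.

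The other 6 genes of these steps did not pass. FDPS, farnesyl diphosphate synthase, averaged 12.3 ± 1.66 FPKM with CuB and 15.6 ± 1.32 FPKM with DMSO (adjusted p = 0.0651). SQLE, squalene epoxidase, averaged 10.9 ± 0.881 and 13.3 ± 1.19 FPKM in the same order (adjusted p = 0.0736), and both passed as lower after the GC correction, at 0.00975 and 0.0117. Both also passed as lower on the TPM scale, with quantile-normalized values and with equal fragment totals (adjusted p from 0.014 to 0.0312), so their calls depended on the scaling. Exons of other genes cover 18.6% of the FDPS exon bases and 15.0% of those of HMGCS1. HMGCS1, the HMG-CoA synthase of the cytosol, was at 10.3, 9.69 and 9.56 FPKM with CuB, against 11.5, 9.9 and 12.3 FPKM with DMSO. Its groups overlapped (adjusted p = 0.21), while without DMSO replicate 2 HMGCS1 passed at 0.0417 and SQLE at 0.0241. The kinases MVK and PMVK and the decarboxylase MVD, which carry mevalonate to isopentenyl diphosphate, had log2 fold changes from -0.27 to -0.16 with overlapping groups. MVK averaged 2.71 ± 0.498 FPKM with CuB and 3.14 ± 0.564 FPKM with DMSO, PMVK 15.4 ± 3.91 and 19.1 ± 6.93 FPKM, and MVD 3.12 ± 0.801 and 3.88 ± 1.46 FPKM. In PMVK and MVD the highest value was that of DMSO replicate 2, at 27.2 and 5.54 FPKM. The 95% intervals were wide, from -0.89 to 0.35 for PMVK and from -0.78 to 0.33 for MVD.

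From lanosterol to cholesterol 4 of 9 genes fell (44.4%, beside 15.6% of all tested genes), with a median log2 fold change of -0.38. All 9 log2 fold changes were again negative, although LSS ranged from -0.18 to 0.14 with 1 library left out. DHCR7, the reductase of the final step (ENSG00000172893, chromosome 11 from 71428193 to 71452868), was at 11.6, 10.5 and 11.2 FPKM with CuB, against 21.8, 24.4 and 20.7 FPKM with DMSO (log2 fold change -0.95, SE 0.0901, adjusted p = 0.00036). MSMO1, a demethylating oxidase, was at 6.44, 5.28 and 5.92 FPKM with CuB, against 10.7, 8.03 and 11.4 FPKM with DMSO. HSD17B7, a ketoreductase, was at 2.3, 1.67 and 1.69 FPKM with CuB, against 4.31, 3.5 and 3.27 FPKM with DMSO. Groups did not overlap in these 3 genes, and MSMO1 and HSD17B7 fell by 0.67 and 0.70 on the log2 scale (adjusted p = 0.00913 and 0.00671). HSD17B7 has a similar copy, HSD17B7P2, with 77 fragments over the 6 libraries beside 1230 for the gene, so its fragments may be split. The copy was at 1.27, 0.491 and 0.844 FPKM with CuB, against 0.389, 0.203 and 0.255 FPKM with DMSO. TM7SF2, a sterol reductase, was at 1.39, 1.62 and 1.86 FPKM with CuB, against 2.66, 3.39 and 2.71 FPKM with DMSO, and fell by 0.58 (adjusted p = 0.0104).

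The remaining 5 genes of this stretch did not pass. EBP, an isomerase, averaged 12.8 ± 0.461 FPKM with CuB and 14.9 ± 1.03 FPKM with DMSO, with no overlap but a small difference (log2 fold change -0.20, adjusted p = 0.0913). EBP passed as lower on the TPM scale, with quantile-normalized values and with equal fragment totals (adjusted p from 0.0148 to 0.0293). SC5D, a desaturase, averaged 5.36 ± 1.3 and 7.21 ± 1.03 FPKM in that order with overlapping groups (adjusted p = 0.11), and passed as lower without CuB replicate 1, at -0.54 (adjusted p = 0.028). LSS, which closes the sterol rings, NSDHL, a decarboxylating dehydrogenase, and CYP51A1, the lanosterol demethylase, overlapped between groups. LSS averaged 5.77 ± 0.658 FPKM with CuB and 6.21 ± 1.84 FPKM with DMSO, and NSDHL 12.5 ± 1.52 and 13.9 ± 1.46 FPKM. The log2 fold changes of LSS, NSDHL and CYP51A1 were -0.07, -0.14 and -0.32, with adjusted p of 0.801, 0.381 and 0.241. For CYP51A1, 83.2% of exon bases are shared with other annotated genes, 79.4% with a gene on the same strand that is listed at 0, so its level of 1.02 to 1.74 FPKM with CuB and 1.47 to 2.86 FPKM with DMSO is uncertain.

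Genes of sterol transport, export and receptor turnover gave 3 falls and 1 rise among 5 tested. Of all tested genes 15.6% fell and 22.9% rose, so the share of the 5 that rose was below that of all tested genes. STARD4, a carrier of free cholesterol between membranes and a known SREBP target (ENSG00000164211, chromosome 5 from 111496033 to 111512590), was at 2.28, 1.32 and 1.58 FPKM with CuB, against 8.54, 6.75 and 8.95 FPKM with DMSO. The highest CuB value was under the lowest DMSO value, and the mean was 4.67-fold lower with CuB. Its log2 fold change of -1.74 (SE 0.16, adjusted p = 0.000307) was the lowest of the 32 tested genes. MYLIP, the ligase that sends lipoprotein receptors to degradation, was at 3.84, 4.3 and 3.95 FPKM with CuB, against 6.4, 6.34 and 7.94 FPKM with DMSO. It fell by 0.65 on the log2 scale with no overlap (adjusted p = 0.00359).

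The lysosomal partners NPC1 and NPC2, which hand cholesterol out of the lysosome, differed in direction. NPC1 was at 10.2, 9.6 and 9.26 FPKM with CuB, against 8.23, 7.76 and 7.7 FPKM with DMSO, and rose by 0.26 on the log2 scale (SE 0.0783, adjusted p = 0.036). This is the 1 rise, and it is small. RMC1, on the opposite strand, shares 5.98% of the NPC1 exon bases and averaged 10.1 FPKM. The part of RMC1 fragments in the NPC1 values was not tested. NPC1 did not pass on the TPM scale, with quantile-normalized values or with equal fragment totals (log2 fold change from 0.11 to 0.17, adjusted p from 0.13 to 0.283), nor without any library other than DMSO replicate 2 (0.0691 to 0.12). NPC2 was at 11.8, 9.34 and 9.27 FPKM with CuB, against 17.3, 13.0 and 14.4 FPKM with DMSO, and fell by 0.51 (adjusted p = 0.0223). It did not pass without CuB replicate 2 or 3 or DMSO replicate 1 or 3, with adjusted p between 0.0528 and 0.086, or when low genes were kept (0.0568).

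The LXR-driven exporters were scarce. ABCA1, which loads cholesterol onto apolipoproteins, was at 1.16, 1.19 and 0.766 FPKM with CuB and 1.12, 0.942 and 1.07 FPKM with DMSO, with a 95% interval of the log2 fold change from -0.33 to 0.31 (adjusted p = 0.964). ABCG1, a related exporter, ranged from 0.132 to 0.184 FPKM with CuB and from 0.105 to 0.16 FPKM with DMSO, or 12 to 16 and 10 to 15 fragments, and was not tested. MYLIP, driven by the same receptor, was the 1 gene of the 3 that passed.

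Of the 4 genes of fatty acid and glycerolipid synthesis 3 fell (75.0%, beside 15.6% of all tested genes). The median log2 fold change of the 4 was -0.83, and SCD and FASN had the highest levels of the 33. SCD, the desaturase that makes monounsaturated fatty acids (ENSG00000099194, chromosome 10 from 100347124 to 100364834), was at 42.1, 41.8 and 41.3 FPKM with CuB, against 96.2, 90.1 and 95.2 FPKM with DMSO. The values within each group were close together and the groups far apart, with a mean 2.25-fold lower with CuB (log2 fold change -1.15, SE 0.0664, adjusted p = 3.99e-05). ACACA, acetyl-CoA carboxylase, the enzyme that commits acetyl-CoA to fatty acids, was at 8.48, 9.12 and 8.77 FPKM with CuB, against 18.5, 18.1 and 18.5 FPKM with DMSO. It fell by 0.99 on the log2 scale with no overlap (adjusted p = 0.000121). ACACA lies on chromosome 17 from 37084988 to 37406818.

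FASN, the fatty acid synthase (chromosome 17 from 82078333 to 82098332), was at 41.5, 53.7 and 62.5 FPKM with CuB, against 76.1, 112.0 and 67.7 FPKM with DMSO. The groups did not overlap but each spread widely, with DMSO replicate 2 the highest, and FASN fell by 0.67 (SE 0.218, adjusted p = 0.0462). It did not pass without CuB replicate 1 or 2 or DMSO replicate 1 or 2 (adjusted p from 0.069 to 0.119), with no filter on low values (0.121) or without the variance trend (0.0529). After the GC correction its adjusted p was 9.32e-05, at a log2 fold change of -0.66. LPIN1, a phosphatidate phosphatase that makes diacylglycerol and also acts with transcription factors, averaged 7.37 ± 0.306 FPKM with CuB and 6.75 ± 0.681 FPKM with DMSO. Its groups overlapped and it did not pass (95% interval of the log2 fold change from -0.11 to 0.34).

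The spread within a group followed the GC content of the transcripts. Of the 32 tested genes, 11 have a longest transcript of at least 55% GC, among them FASN, TM7SF2, MVD, SREBF1, SCAP and PMVK. In these 11 the median deviation from the group mean on the log2(FPKM + 1) scale was -0.202, 0.0496 and 0.165 in CuB replicates 1 to 3 and -0.128, 0.334 and -0.22 in DMSO replicates 1 to 3. In the 21 genes under 55% it was 0.0651, -0.021 and -0.0432 with CuB and 0.0387, -0.0937 and 0.0196 with DMSO. Removing a smooth curve on GC content from each library left the 15 falls and the NPC1 rise in place. It added 5 falls, in HMGCS1, FDPS, SQLE, EBP and SC5D, and the rise of SREBF1. Calls grew in number among all 13273 tested genes as well, from 2072 to 2926 falls and from 3046 to 4787 rises. The median GC content was 47.1% in the 15 genes that fell, 52.0% in the 16 that did not pass and 47.7% in all tested genes. Beyond this correction, the part of GC content in which genes passed was not tested.

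**Figure D4:**
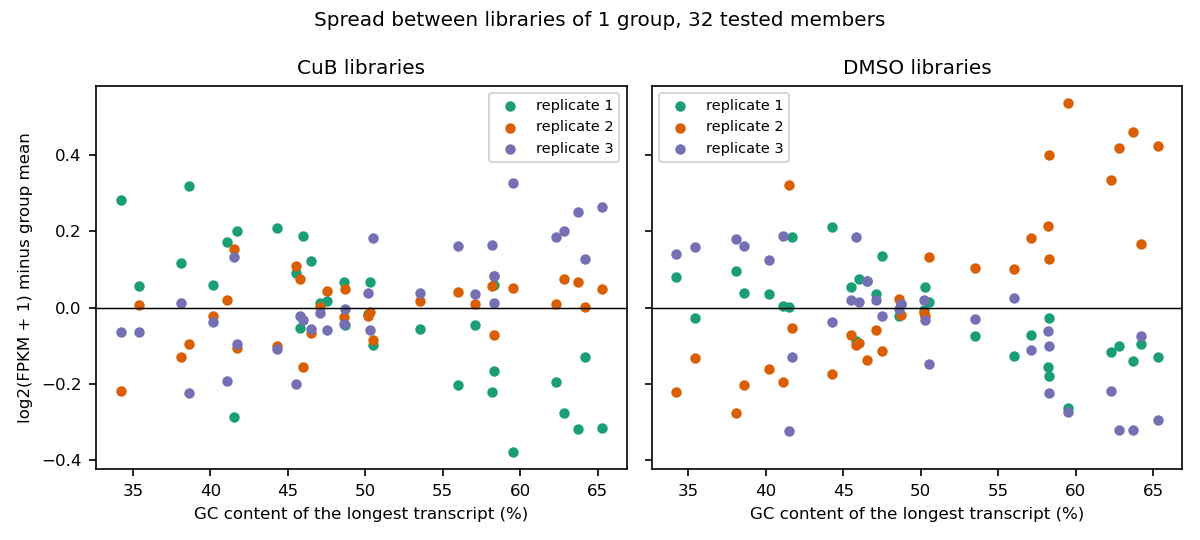
Deviation of each library from its group mean on the log2(FPKM + 1) scale against the GC content of the longest transcript, for the 32 tested genes, with CuB libraries at the left and DMSO libraries at the right. DMSO replicate 2 lies above its group mean for GC-rich genes (median 0.334 at 55% GC or more), and CuB replicate 1 lies below (-0.202).

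Other genes of the same pathways were then described from 6 lists, 92 genes in all, of which 79 were tested. Of these 22 rose and 22 fell (27.8% each, beside 22.9% and 15.6% of all tested genes), with a median log2 fold change of 0.04. The even split differs in its counts from the 1 rise and 15 falls among the 32 genes above, and that difference was not tested.

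Among 13 other regulators of SREBP 4 rose (30.8%, beside 22.9% of all tested genes) and 3 fell (23.1%, beside 15.6%). RNF145, a membrane-bound ubiquitin ligase that acts on SCAP, was at 19.8, 17.0 and 19.1 FPKM with CuB, against 50.4, 44.6 and 51.8 FPKM with DMSO (log2 fold change -1.35, adjusted p = 0.0001). The SREBP proteases MBTPS2 and MBTPS1 fell by 0.45 and 0.39, the first not passing without CuB replicate 2 or 3 or DMSO replicate 1 or 3 (adjusted p from 0.108 to 0.122) or with no filter (0.0873). PAQR3, a Golgi protein that anchors SCAP there, rose by 0.77, RNF139, a ligase that turns over sterol regulators, by 0.55, and NFYC, an NF-Y subunit, by 0.44. RNF139 missed the threshold after quantile normalization (adjusted p = 0.0588) and without DMSO replicate 1 (0.0518). Of 12 tested isoprenoid and sterol enzymes and accessory genes 3 rose and 5 fell, beside 22.9% and 15.6% of all tested genes. FAXDC2, a member of the sterol oxidase family, fell by 0.99, ERG28, a scaffold of sterol enzymes, by 0.75, and CYP27A1, the sterol 27-hydroxylase, by 0.64. CYP27A1 had an adjusted p of 0.0537 when DMSO replicate 1 was left out. COQ2, an enzyme of ubiquinone synthesis, rose by 0.50 and DHDDS, of dolichol synthesis, by 0.33. DHDDS did not pass under 3 of the rescalings (adjusted p from 0.0728 to 0.14) or without CuB replicate 2 or 3 or DMSO replicate 1 or 3 (0.0804 to 0.0866).

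Of 14 tested genes of sterol esters and transport 5 rose (35.7%, beside 22.9% of all tested genes) and 3 fell (21.4%, beside 15.6%). VLDLR, a lipoprotein receptor, was at 4.07, 3.45 and 3.47 FPKM with CuB, against 0.956, 0.491 and 1.02 FPKM with DMSO, a mean 4.46-fold higher with CuB (adjusted p = 0.000596). The membrane proteins ANXA2 and CAV1 rose by 1.39 and 1.12 on the log2 scale. LIPA, the lysosomal acid lipase that frees cholesterol from its esters, was at 6.78, 5.98 and 5.72 FPKM with CuB, against 12.4, 10.7 and 12.7 FPKM with DMSO, and fell by 0.85. SCARB1, a receptor for high-density lipoprotein, fell by 0.51 and LRP8, a receptor of the same family as VLDLR, by 0.40. SCARB1 did not pass without CuB replicate 1 or 2 or DMSO replicate 1 (adjusted p from 0.0621 to 0.0727) or with no filter (0.0552). Among 9 genes of LXR and its targets 1 rose, NR1H2, which encodes LXR beta (0.55), and 1 fell, NR1H3, which encodes LXR alpha (-0.52). Each share was 11.1%, below the 22.9% of all tested genes that rose and the 15.6% that fell. NR1H2 did not pass under 3 rescalings (adjusted p from 0.0709 to 0.123) or without CuB replicate 2 or 3 or DMSO replicate 1 or 3 (0.0901 to 0.109) or with no filter (0.0911), nor NR1H3 without DMSO replicate 1 (0.063).

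Of 17 other tested genes of fatty acid synthesis 5 rose (29.4%, beside 22.9% of all tested genes) and 6 fell (35.3%, beside 15.6%). ACSS2, which makes acetyl-CoA from acetate, was at 5.12, 4.52 and 5.25 FPKM with CuB, against 16.1, 17.7 and 15.3 FPKM with DMSO (log2 fold change -1.54, adjusted p = 4.96e-05). ELOVL6, an elongase of saturated fatty acids, fell by 1.07, and SLC25A1, the mitochondrial citrate carrier, by 0.89. MID1IP1, a protein that activates acetyl-CoA carboxylase, was at 21.1, 24.2 and 25.2 FPKM with CuB, against 8.49, 10.4 and 7.39 FPKM with DMSO, and rose by 1.34. FADS3, of the fatty acid desaturase family, rose by 0.85 and ACSL1, an acyl-CoA synthetase, by 0.71. Of 14 tested genes of glycerolipids and lipid droplets 4 rose and 4 fell (28.6% each, beside 22.9% and 15.6% of all tested genes). PLIN2, a coat protein of lipid droplets, was at 109.0, 99.0 and 94.5 FPKM with CuB, against 58.2, 53.8 and 58.1 FPKM with DMSO, and rose by 0.82. CHKA, choline kinase, rose by 1.02 and PISD, which makes phosphatidylethanolamine in mitochondria, by 0.61. HILPDA, a small protein of lipid droplets, fell by 0.62, LPIN2, a relative of LPIN1, by 0.54 and AGPAT3, an acyltransferase, by 0.53.

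**Figure D5:**
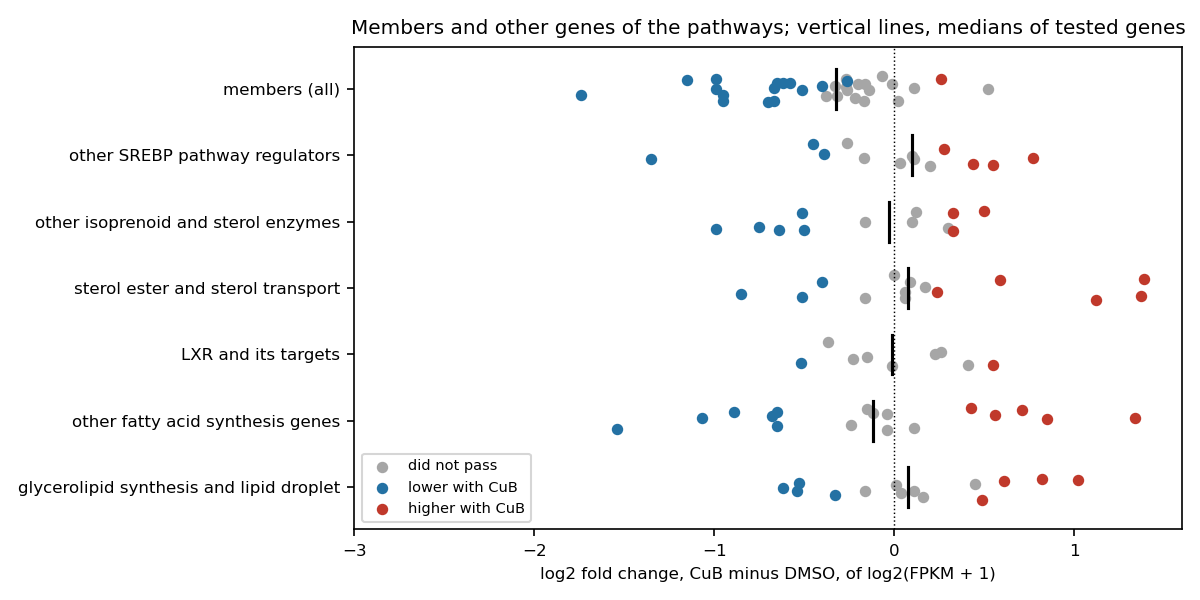
Log2 fold change of the tested genes, CuB minus DMSO, for the 32 tested sterol and lipid genes (top row) and the 6 lists of other pathway genes, coloured by whether each passed, with vertical lines at the medians. The top row has its median at -0.33, and the medians of the 6 lists lie between -0.12 and 0.10.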

How the data were processed

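The authors deposited FPKM for 58735 genes in 6 libraries of polyadenylated RNA, with gene names, coordinates and lengths, on the build GRCh38, as named in the submitters' processing notes. Which aligner, counter and scaling were used is not stated in these sources. Columns were matched to samples by library name, and 0 such columns stayed unused. Whole fragments were recovered from the steps between low FPKM values. The deposited gene lengths were used as given.

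Values were tested as log2(FPKM + 1) in the 13273 genes averaging at least 1 FPKM, by limma 3.58.1 in R 4.3.3 with an intensity trend, 4 residual degrees of freedom and Benjamini-Hochberg adjustment over all tested genes at 0.05. GC content came from the longest GENCODE 29 transcript and was known for 99.94% of tested genes. It was removed as a lowess curve (span 0.3). Promoters came from RefSeq, matched by symbol. The library size behind the FPKM was read from the same steps. Plots used Python 3.11.15 and matplotlib 3.10.9.

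Other settings were a pseudocount of 0.1 or 0.5, a floor of 5 FPKM or none, the TPM scale (an equal FPKM sum in each library), quantile normalization, median of ratios, equal fragment totals, limma without the trend or with robust hyperparameters, limma-voom on recovered fragments, the GC correction, the replicate block with and without it, and each library left out in turn. The genes, lists and tests were chosen with earlier results of these data known. All 33 genes were named, and of each other list up to 3 of the largest rises and 3 of the largest falls among genes that passed, except 1 gene that is not reported here. Replicates differed by more than sampling noise, with chi-square over its degrees of freedom between 2.8 and 24.3 in the 6 pairs.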

Additional observations from a re-analysis of the deposited data

How the results depend on the processing

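Over 20 alternative settings, 11 of the 15 falls kept their direction and passed in every setting that tested the gene, and the other 4 (INSIG1, ACAT2, NPC2 and FASN) kept their direction. The number of falls went from 11 to 21. The number of rises, 1, was 0 on the TPM scale, with quantile-normalized values and with equal fragment totals, 2 with the GC correction, and 0 to 2 with 1 library left out. All changed genes numbered 5118, against 3250 at a minimum of 5 FPKM, where fewer genes were tested, 7713 with the GC correction and 3262 to 5755 with 1 library left out. The cause of the other shifts was not tested. The number was 3262 without CuB replicate 2. Equal fragment totals shifted the all-gene median log2 fold change by -0.139. Of 79 other pathway genes 22 rose and 22 fell, ranging from 15 to 31 and from 16 to 27 over the settings. The replicate block gave 4443 changed genes, 14 falls and 0 rises, and with the GC correction 7293, 19 and 2. With the block alone ACAT2, NPC1 and DHDDS had adjusted p of 0.101, 0.0943 and 0.0659. Same-numbered libraries deviated from their group means with correlations of 0.269, 0.118 and -0.357, and CuB replicate 1 was closest to DMSO replicate 3 (0.393). These deviations also followed GC content, so the correlations cannot tell whether same-numbered libraries were handled together. Genes that did not pass changed sign in some settings. SCAP, at 0.02, was at -0.08 on the TPM scale, -0.15 with quantile-normalized values and -0.14 with equal fragment totals. ABCA1, at -0.01, was at 0.10 after quantile normalization and 0.02 with the GC correction, with or without the replicate block. LPIN1, at 0.11, was at -0.03 with equal fragment totals. With 1 library left out, SCAP ranged from -0.09 to 0.19, MVD from -0.39 to 0.01, LSS from -0.18 to 0.14 and ABCA1 from -0.06 to 0.09. Depth limits ABCG1, with 10 to 16 fragments a library.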
